A study of Rattus norvegicus with 6 samples.

Results

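The genes described here encode receptors for the inhibitory transmitters GABA and glycine, together with the proteins that anchor those receptors, take the transmitters up, break GABA down or set the chloride gradient on which the receptors depend. The list held 28 genes, chosen by symbol, and 27 of them were found among the 30560 genes of the table. Gabre was not found by symbol and was not analysed here. Gphn, which encodes the scaffold gephyrin, was present under 2 gene identifiers, of which 1 held 3 to 11 UMIs (unique molecular identifiers, each standing for 1 captured RNA molecule) in a whole library and the other held 0 in all 6 libraries. Other gene identifiers were not searched for its reads, so these counts do not measure how much gephyrin RNA the tissue held, and the gene is not described further.

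Single nuclei were sequenced from brains of male wild-type Wistar rats aged 12 weeks, 48 h after permanent middle cerebral artery occlusion (MCAO), a filament model of ischemic stroke, or after a sham operation. Each library pooled coronal tissue of 1 hemisphere from several rats. The Sham group held the left and the right hemisphere of the same 4 rats (Sham L and Sham R). The MCAO contra group held the left hemispheres, opposite the lesion, of 3 rats with moderate infarcts (mMCAO contra) and of 4 rats with severe infarcts (sMCAO contra), and the MCAO ipsi group held the right, infarcted hemispheres of those same rats (mMCAO ipsi and sMCAO ipsi). Each level is a sum over nuclei. Because each pool gave 1 library per hemisphere, the p-values below measure the spread between libraries and not between rats, and each MCAO group of 2 libraries joins 1 moderate and 1 severe pool. In every list of 6 values below, the order is Sham L, Sham R, mMCAO contra, sMCAO contra, mMCAO ipsi and sMCAO ipsi, and each value is a level in counts per 1000000 UMIs of the named cell class (CPM).

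GABA acts on GABA-A receptors, chloride channels built from several subunits, and on GABA-B receptors, which are coupled to G proteins and in neurons open potassium channels. Glycine receptors are chloride channels of the same family as GABA-A receptors. Whether opening such a channel inhibits a cell depends on its chloride gradient, which the transporters KCC2 (Slc12a5) and NKCC1 (Slc12a2) set in opposite directions. Astrocytes carry GABA-A and GABA-B receptors and clear GABA through transporters such as GAT3 (Slc6a11), and oligodendrocyte precursor cells (OPCs) receive GABAergic synapses from interneurons.

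The libraries held 33012945 to 52513380 UMIs and 8774 to 14508 nuclei, and 118 to 281 barcodes were shared by any pair of libraries. Nuclei were assigned to classes by marker genes, none of which was a member. Per library this gave 1229 to 4801 glutamatergic neurons, 540 to 2145 medium spiny neurons, 155 to 454 interneurons, 193 to 492 astrocytes, 116 to 380 OPCs and 408 to 1923 oligodendrocytes. The severe ipsi library held the fewest nuclei of all 3 neuron classes. Its nuclei were deeper than those of the other libraries in each of these classes, with a median of 2364.5 UMIs per astrocyte against 612 to 1380 elsewhere. Glutamatergic neurons had a median of 8749 against 3139.5 to 4982, and medium spiny neurons 5903 against 1979 to 3556. In a sum over a class, fewer nuclei of a subtype and less RNA per nucleus cannot be told apart.

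In the Sham libraries the members differed in the cell class that held them most. The classes with the highest level were the glutamatergic neurons for Gabbr2 (GABA-B subunit 2), Gabra5 and Slc12a5, and the medium spiny neurons, the projection neurons of the striatum, for Gabra2, Gabra4, Gabrd and Gabrg3. Gabrd encodes the δ subunit of GABA-A receptors outside synapses. Interneurons led for Gabrb2, Glra2 and Glra3. Astrocytes led for Gabrb1, Gabrg1, Gabbr1, Slc6a11 and Abat, the enzyme that breaks down GABA. Oligodendrocytes led for Slc12a2, Slc6a9 (the glycine transporter GLYT1) and Glrb (the glycine receptor β subunit), and OPCs for Gabra3 and Nlgn2, an adhesion protein of inhibitory synapses.

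Some genes led by glia were set apart most clearly from neurons. Slc6a11 in glutamatergic neurons was at 8.43% of its level in astrocytes, and Slc12a2 in glutamatergic neurons at 11.6% of its level in oligodendrocytes. Gabrg1, the γ1 subunit of GABA-A receptors, reached 76.4% of its astrocyte level in OPCs but 5.31% in glutamatergic neurons. Other genes were spread more evenly. Slc12a5 in medium spiny neurons and interneurons was at 91.1% and 96.7% of its level in glutamatergic neurons, and Nlgn2 lay between 78.6% and 100% in every class but the oligodendrocytes. Gabra3 in glutamatergic neurons reached 97.45%, Nlgn2 in interneurons 95.69% and Gabra2 in astrocytes 91.8% of the highest class. Abat in interneurons reached 88.4%, Glrb in OPCs 84.7%, and Glra3 and Gabrb2 in astrocytes 86.5% and 85.4%. Like Slc12a5, these genes have no clear leader, and glial values include the neuronal RNA described below.

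**Figure D1:**
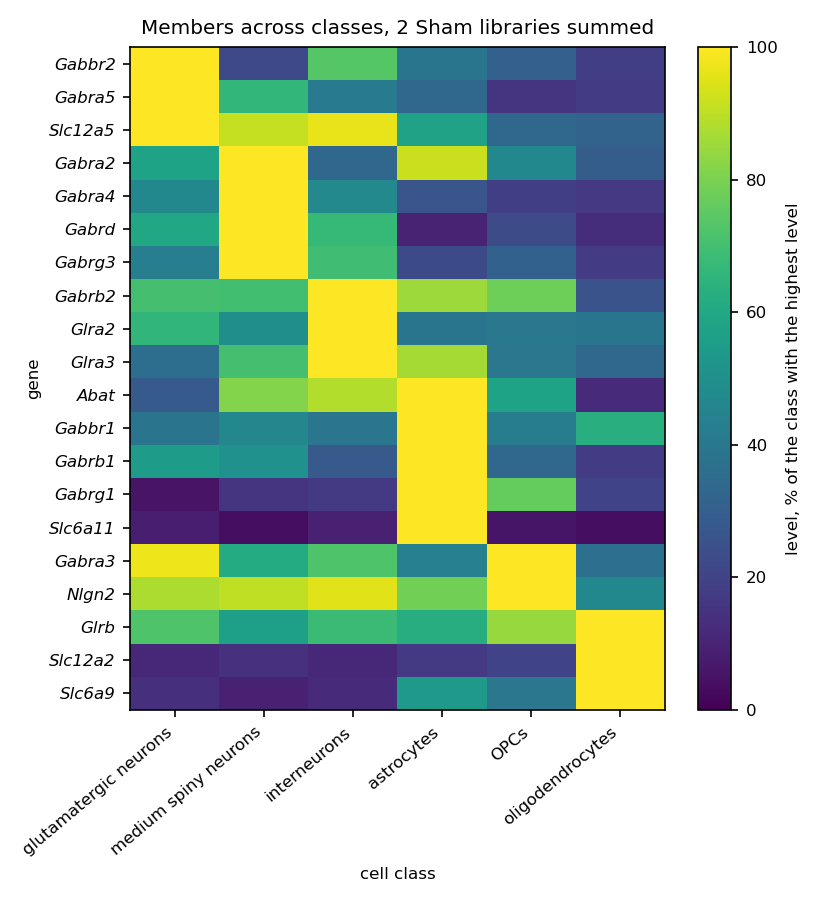
Level of 20 members in 6 cell classes, with the 2 Sham libraries summed. Each row is a gene and each column a class, and colour gives the level as a percentage of that gene's highest class, so that rows compare classes within a gene and not genes with each other. Slc6a11 and Gabrg1 are brightest in astrocytes, Slc12a2 and Slc6a9 in oligodendrocytes.

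In medium spiny neurons Gabrg1 was higher in MCAO ipsi than in Sham, and Gabbr2, Gabrd and Glra3 were lower, which made 4 of the 20 members tested, against 6.07% of 12166 genes tested in this class. A gene was called where edgeR's quasi-likelihood test gave an adjusted p below 0.05 and a log2 fold change of at least 0.6 in size. The median log2 fold change was -0.10 over the members tested and 0.00 over all genes.

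Gabrg1 in medium spiny neurons stood at 33.1, 34.2, 39.8, 45.9, 61.6 and 98.4 CPM. Both ipsi libraries lay above the 4 others, and both contra libraries above both Sham libraries. The log2 fold change from Sham to MCAO ipsi was 1.14 ± 0.17 (SE, n = 2 libraries against 2, edgeR adjusted p = 0.00138). The ratio of the severe to the moderate ipsi library was 1.60, with a counting interval of 1.35 to 1.89, and the 2 severities, with 1 library each, were not tested against each other. In both finer types Gabrg1 was highest in the severe ipsi library, at 94.5 in indirect pathway neurons against 27.8 to 51.5 elsewhere and at 88.6 in direct pathway neurons against 24.6 to 49.5. The moderate ipsi library did not stand above the Sham and contra libraries in either type. The 51.5 was that of sMCAO contra, and the 24.6 that of mMCAO ipsi, which held 77 direct pathway nuclei. Neither type was tested. Astrocytes and OPCs hold more of this gene than neurons. The summed level of the 15 astrocyte markers in medium spiny neurons was 993 in the severe ipsi library and 1076 and 1120 in Sham L and Sham R, and that of the 6 OPC markers was 43.1 against 33.1 and 38.8, with no marker of either list at 0 over the libraries.

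Gabbr2 in medium spiny neurons stood at 150.1, 144, 119, 137, 93.5 and 63.6, with both ipsi libraries below the others. Its log2 fold change was -0.99 ± 0.14 (SE, n = 2 against 2, edgeR adjusted p = 0.00123), and it was called in all 11 alternative analyses. Gabbr1, the partner subunit without which no GABA-B receptor forms, was at 131, 139, 145, 150.4, 103 and 130.3, and did not pass the test (log2 fold change -0.31 ± 0.10, edgeR adjusted p = 0.0708). Among the pathway genes outside the member list, Kcnj3 and Kcnj6, subunits of the potassium channels that GABA-B receptors open, were also lower in this class. Kcnj3 stood at 208, 214, 160, 188, 143 and 78.5, a log2 fold change of -1.001 ± 0.19 (edgeR adjusted p = 0.00548), and that of Kcnj6 was -1.28 ± 0.24 (edgeR adjusted p = 0.00566). Kcnj9, Kctd8, Kctd12 and Kctd16 of the same list were tested in this class and not called. Their log2 fold changes were 0.06, 0.12, 0.45 and -0.10.

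Gabrd in medium spiny neurons stood at 21.7, 24.3, 23.4, 28.5, 9.93 and 15.8, and again both ipsi libraries were lowest (log2 fold change -0.95 ± 0.21, edgeR adjusted p = 0.011). The severe ipsi library here held more than the moderate one, with a ratio of 1.59 and a counting interval of 1.03 to 2.46. Glra3, the α3 subunit of glycine receptors, stood at 52.9, 38.8, 33.7, 37.4, 30.6 and 32.1. The ipsi libraries were below the others, but Sham L lay apart from Sham R, and the log2 fold change of -0.65 ± 0.15 (edgeR adjusted p = 0.018) became -0.40 without Sham L, where its edgeR adjusted p of 0.258 was the highest of a range from 0.000135 over 11 alternatives. The Glra3 call was also lost with DESeq2 and without TMM factors, and that of Gabrd without Sham R. Without Sham L 1 of the 4 calls was left, that of Gabbr2. The edgeR adjusted p of Gabrg1 was then 0.0515, also the highest of its 11 alternatives.

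The other 16 members tested in this class were not called. Gabra4, abundant in striatal GABA-A receptors, was at 462 to 499 in all 6 libraries, and Gabrg3 at 2125 to 2453. Gabra2 stood at 299.6, 306, 297, 335, 425 and 449.6, with both ipsi libraries highest, and its log2 fold change of 0.44 ± 0.08 had an edgeR adjusted p of 0.00487 but a size below the limit for a call. Gabrb1 reached 1092 and 1369.7 in the ipsi libraries against 931 to 1055 in the others. Gabra5, the α5 subunit, stood at 23, 22.2, 22.6, 15.8, 10.4 and 19.6, and its log2 fold change of -0.71 ± 0.24 (edgeR adjusted p = 0.088) was called only without sMCAO ipsi or without the filter on low counts. Slc6a11 stood at 3.57 to 8, on 12 to 39 UMIs per library (log2 fold change -0.82 ± 0.32, edgeR adjusted p = 0.131).

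Glutamatergic neurons had 3 called members among 22 tested, against 7.79% of 15005 genes: Gabrg1 and Glra1 were higher in MCAO ipsi and Gabrd was lower. The median log2 fold change was -0.06 over the members and 0.01 over all genes. These calls were lost without Sham L, Sham R, mMCAO contra or sMCAO contra. Glra1 alone was left without sMCAO ipsi, and further members were called without mMCAO ipsi. The count over all genes also rose without mMCAO ipsi and fell without any other library.

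Glra1, the α1 subunit of glycine receptors, best known from spinal cord and brain stem, had the widest change of the members called in this class. Its level in glutamatergic neurons was 0.867, 1.44, 0.903, 1.05, 3.05 and 19.4, resting on 19, 23, 23, 16, 72 and 217 UMIs. Both ipsi libraries lay above the others, and the severe one stood 6.37 times above the moderate one (counting interval 4.85 to 8.43). The log2 fold change was 3.09 ± 0.77 (SE, n = 2 against 2, edgeR adjusted p = 0.0328). The 217 UMIs of the severe ipsi library were spread over 153 of 1229 nuclei (12.4%, at a median depth of 8749 UMIs), with at most 5 in 1 nucleus, whereas 4 of 540 medium spiny neurons of that library (0.741%, at a median depth of 5903) had a Glra1 UMI. Glra1 was not particular to glutamatergic neurons. It stood at 11.3, 0, 6.43, 6.78, 14.6 and 24.2 CPM in astrocytes, on 3, 0, 3, 2, 11 and 35 UMIs and against a level expected from free neuronal RNA of 0.784 to 2, and at 2.59, 4.94, 0.581, 6.52, 10.4 and 11.4 in interneurons, on 1 to 11 UMIs. In both classes the ipsi libraries were the highest, and neither was tested because the gene did not pass the filter there. In Sham L and Sham R, 0.3004% and 0.3202% of glutamatergic neurons had one, at median depths of 4271 and 3139.5.

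The Glra1 difference was present in deep and in upper layer neurons of the severe ipsi library, at 18.7 and 25.4 CPM (139 and 15 UMIs), against at most 1.94 and 1.15 in the Sham libraries. In the moderate ipsi library it stood at 3.83 in deep layer neurons, above both Sham libraries, and at 0.757 in upper layer neurons, below both. The severe ipsi library held 73 upper layer nuclei against 366 to 541 in the others. Slc6a5, the neuronal glycine transporter GLYT2 and a pathway gene outside the member list, rested on 8, 3, 8, 6, 28 and 50 UMIs in glutamatergic neurons, in the order above. It passed the filter on low counts only through the ipsi libraries, so no test is given for it.

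Gabrg1 in glutamatergic neurons stood at 10.6, 12.9, 15, 20, 18.1 and 24.7, where the ipsi libraries exceeded both Sham libraries but overlapped the contra libraries (log2 fold change 0.73 ± 0.17, edgeR adjusted p = 0.0289). Gabrd stood at 13.7, 13.7, 16.6, 16.8, 9.92 and 6, with both ipsi libraries lowest (log2 fold change -0.84 ± 0.21, edgeR adjusted p = 0.0344). The astrocyte markers summed to 719 in the severe ipsi library and to 851 and 822 in the Sham libraries, while the OPC markers summed to 97.5 against 52.0 and 52.5. The part of OPC RNA in the Gabrg1 difference of this class was not tested.

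KCC2 (Slc12a5), the chloride extruder of mature neurons, narrowly missed the size limit in glutamatergic neurons. It stood at 139, 137, 160.2, 168, 108 and 90.3, with both ipsi libraries below all others, and its log2 fold change was -0.59 ± 0.11 (edgeR adjusted p = 0.0125). In medium spiny neurons it was at 123, 129, 126, 146, 94 and 119 (log2 fold change -0.34 ± 0.11, edgeR adjusted p = 0.0664), and in interneurons at 136, 130.0, 174, 166, 125 and 101. Its counterpart NKCC1 (Slc12a2) lay between 57.7 and 68.2 in glutamatergic neurons, with a log2 fold change of 0.06 ± 0.07 (edgeR adjusted p = 0.607). Gabbr2 stood at 691, 634, 622, 621, 548 and 460.2 and Nlgn2 at 23.2, 22.4, 25.8, 25.3, 16.8 and 17.2, and both had an adjusted p below 0.05 with a change smaller than the limit (log2 fold changes of -0.51 and -0.54).

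Several other subunits of glutamatergic neurons stayed within narrow ranges. Gabrb2 lay between 350.4 and 387, Gabra3 between 88.6 and 112, Gabra2 between 173 and 202 and Glrb between 82.2 and 97.5. Gabra4 was at 181 in the severe ipsi library and at 222 to 264 in the other 5, a ratio of severe to moderate of 0.683 (counting interval 0.649 to 0.719). Of the 22 members compared between the ipsi libraries in this class, 7 were higher in the severe one and 7 lower beyond counting error. The same comparison between the Sham hemispheres gave 5 higher and 3 lower on the right. Neither count was made over all genes.

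No member was called in interneurons, where edgeR tested 20, against 1.02% of 8959 genes. DESeq2 also called 0, and 4 members had an unadjusted edgeR p below 0.05. Gabbr2 came nearest, at 522, 433, 447, 469, 371 and 351, with both ipsi libraries lowest (log2 fold change -0.46 ± 0.12, edgeR adjusted p = 0.0542). Gabrd had 0 UMIs in the severe ipsi library, which allows a level of up to 3.11 CPM, and 7.25 to 18.6 CPM in the other 5 (edgeR adjusted p = 0.161). Without mMCAO ipsi, Glrb and Gabrd were called, and the count over all genes rose too.

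Glra2, the α2 subunit of glycine receptors, differed in level between the types of interneuron. It stood at 104 to 161 in Adarb2 interneurons and at 18.5 to 34.6 in Lhx6 interneurons, with no overlap in any group. In cholinergic neurons it lay at 228 to 334. Within each of these types the ipsi libraries fell inside or close to the range of the others, as with 148 and 161 against 104 to 149 in Adarb2 interneurons. The Glra2 values rest on 34 to 62, 7 to 32 and 54 to 105 UMIs per library, and were not tested.

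**Figure D2:**
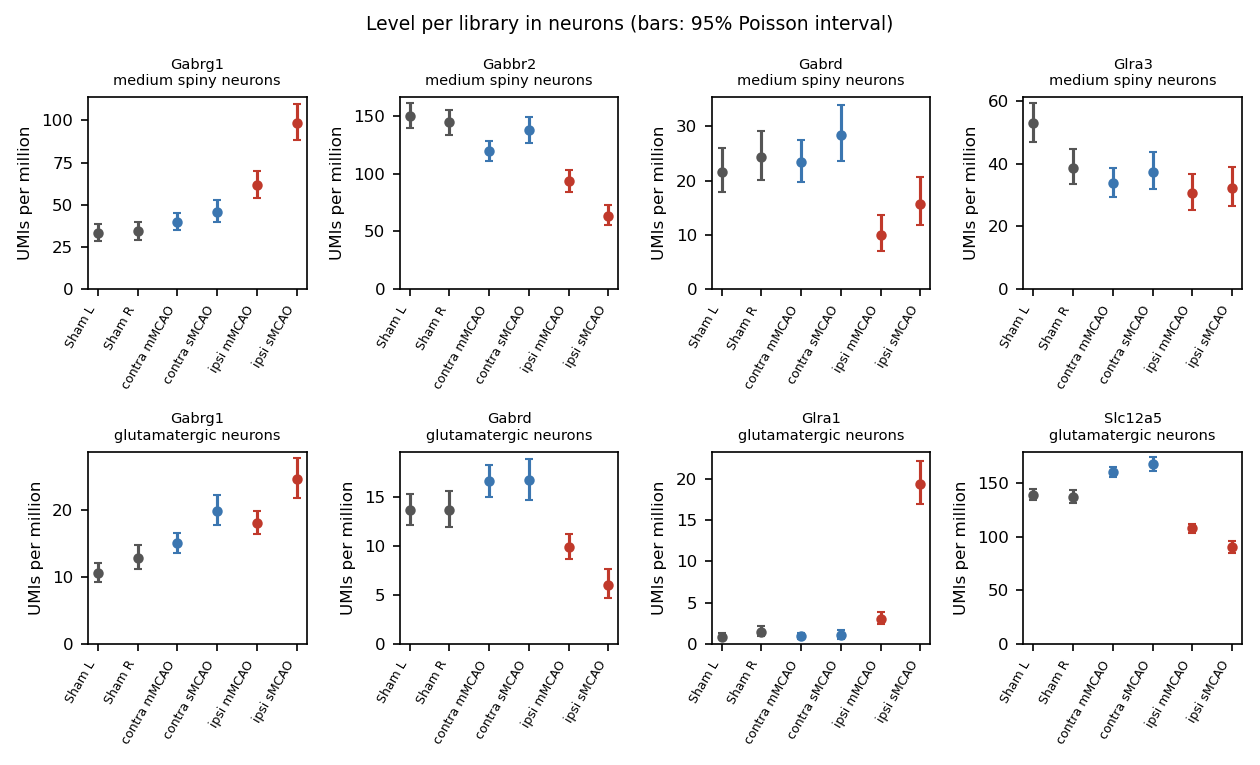
Levels of called members in neuron classes, and of Slc12a5 in glutamatergic neurons, which was not called, in CPM (UMIs per 1000000 UMIs of the class), for each of the 6 libraries. Points are libraries, bars are exact Poisson intervals for counting error, and each panel is 1 gene in 1 class. Gabrg1 in medium spiny neurons is highest and Gabbr2 lowest in the 2 ipsi libraries, and Glra1 in glutamatergic neurons reaches 19.4 in sMCAO ipsi.

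Glial classes also held RNA of neuronal genes, which is treated below as free RNA. Whether doublets or nuclei placed in the wrong class gave part of it was not tested. The deposited counts come before the study's removal of free RNA. From 9 genes of neurons that the classes were not built on, such as Snap25 and Rbfox3, the share of astrocyte UMIs that free RNA of each library's mean profile would account for was 48.2%, 51.8%, 35.2%, 31.2%, 30.8% and 16.8%. In OPCs it was 40.5%, 38.6%, 29.8%, 31.1%, 28.5% and 12.9%, and in oligodendrocytes 31.1%, 28.9%, 17.1%, 22.2%, 14.7% and 9.22%. These are upper estimates where glia themselves express such genes. In all 3 classes the share was highest in the Sham libraries and lowest in sMCAO ipsi. The level of a member expected from this source is set beside its value below. Free RNA is also part of the class total, so a low expected level does not mean that it leaves a CPM value unchanged. Subtraction turned the change of Gabrg1 in astrocytes from Sham to ipsi from higher to lower, as given in a later section.

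In astrocytes 4 of 18 members tested were called between MCAO ipsi and Sham, all lower, against 13% of 7120 genes: Gabrb2, Gabbr2, Glra3 and Slc12a5. The median log2 fold change was -0.47 over the members and 0.01 over all genes. With free RNA subtracted it was -0.27 over the 13 members then tested and 0.05 over all genes. Between MCAO ipsi and MCAO contra 4 were lower, namely Gabrb2, Gabbr2, Slc6a11 and Gabrg1, against 8.38% of genes, and the fit with the rat pool as a block called 6. None of the calls from Sham was left without Sham L or Sham R, and their count fell without either contra library and rose without mMCAO ipsi. None of the calls from contra was left without mMCAO contra or sMCAO contra, and their count fell without Sham L and rose without mMCAO ipsi. In each of these fits the count over all genes moved in the same direction. Without sMCAO ipsi, by contrast, the member count from Sham rose while that over all genes fell.

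GAT3 (Slc6a11), the GABA transporter of astrocytes, was lower on the side of the infarct than on the opposite side. It stood at 193, 166, 298, 352, 109 and 184 CPM, against an expected free RNA level of 3.29 to 7.78. Both contra libraries were the highest and the moderate ipsi library was the lowest, while sMCAO ipsi fell between Sham L and Sham R. From contra to ipsi the log2 fold change was -1.19 ± 0.24 (SE, n = 2 against 2, edgeR adjusted p = 0.014), and with the expected free RNA subtracted it was -1.37 (edgeR adjusted p = 0.0195). From Sham to ipsi it was -0.37 ± 0.27 (edgeR adjusted p = 0.416), with an adjusted p of 0.0462 to 0.851 over 12 alternatives, the lowest without sMCAO ipsi. Without either contra library the fall from contra to ipsi was not called, and its adjusted p over 13 alternatives was at most 0.11. From Sham to contra it was 0.81 ± 0.27 with an unadjusted edgeR p of 0.0118 and an adjusted p of 0.608, and it was called without mMCAO ipsi and without sMCAO ipsi (adjusted p over 12 alternatives 0.0253 to 1).

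In astrocytes Gabrg1 was also highest in the contra libraries, but its ipsi libraries lay above both Sham libraries. It stood at 212, 228, 373, 441, 257 and 274, with an expected free RNA level of 14.9 to 18.6, and both contra libraries lay above the 4 others. The log2 fold change was -0.67 ± 0.18 from contra to ipsi (edgeR adjusted p = 0.0493), 0.86 ± 0.21 from Sham to contra (unadjusted p = 0.00155, edgeR adjusted p = 0.608) and 0.19 ± 0.20 from Sham to ipsi (edgeR adjusted p = 0.6). The call from contra to ipsi was lost when Sham L, Sham R or either contra library was left out, with DESeq2, without TMM factors, without the filter, with only the 4 libraries compared and with free RNA subtracted, and the edgeR or DESeq2 adjusted p over all 13 alternatives ran from 0.0119 to 0.358. The difference from Sham to contra was called without mMCAO ipsi and without sMCAO ipsi, with an adjusted p over 12 alternatives of 0.00771 to 1. Gabbr1 was highest in the contra libraries as well, at 287, 297, 435, 379.5, 295 and 338 against an expected 22.6 to 63.2, and passed in no comparison.

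With free RNA subtracted, 0 members and 1 of 5674 genes were called in astrocytes between MCAO contra and Sham. Without subtraction no member was called either, and 0% of 7120 genes were. DESeq2 called 0 of the members as well, 3 had an unadjusted edgeR p below 0.05, namely Gabrg1, Slc6a11 and Gabbr1, and 2 were called without mMCAO ipsi or without sMCAO ipsi.

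Gabrb1, the β1 subunit of GABA-A receptors, passed the test in none of the 3 comparisons of astrocytes. It stood at 2080.3, 2033, 2252, 2247, 1995 and 1793, against an expected free RNA level of 198 to 571, and its log2 fold changes were -0.20 ± 0.19 from Sham to ipsi, -0.30 ± 0.19 from contra to ipsi and 0.10 ± 0.20 from Sham to contra, with edgeR adjusted p of 0.569, 0.402 and 0.924. Gabra2 lay at 249 to 416 without a call, above its expected free RNA level of 32.8 to 99.3. Abat stood at 185, 126, 148, 193, 94.5 and 102 against an expected 11.6 to 43.3, with both ipsi libraries lowest and adjusted p just above the threshold (0.0678 against Sham and 0.0517 against contra). In the same nuclei the reactive astrocyte genes Vim, Cd44, Osmr and Cp together stood at 11.3 and 22.8 in Sham and at 814 and 1647 in the ipsi libraries, and their part in the member values was not tested.

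Gabrb2, the β2 subunit of GABA-A receptors and highest in interneurons, fell in astrocytes. It lay above its expected free RNA level in all 6 libraries, though only slightly in sMCAO ipsi. It stood at 458, 411, 343, 346, 168 and 62.2, and the expected levels were 194, 211, 133, 127, 117 and 54.5. The groups did not overlap, and the severe ipsi library was at 0.371 of the moderate one (counting interval 0.280 to 0.490). The log2 fold change from Sham to ipsi was -2.04 ± 0.38 (edgeR adjusted p = 0.00837), and after subtraction of the expected free RNA it was -3.66 (edgeR adjusted p = 0.0238). That subtraction left little of the sMCAO ipsi level. From contra to ipsi the log2 fold change without subtraction was -1.68 ± 0.37 (edgeR adjusted p = 0.0199). The fall from Sham was not called without Sham L or Sham R, with an edgeR adjusted p of at most 0.132 over 12 alternatives. The fall from contra was not called without Sham L, mMCAO contra or sMCAO contra, nor with only the 4 libraries compared, with an edgeR adjusted p of at most 0.178 over 13 alternatives.

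The other lower members of astrocytes differed in how near they lay to the free RNA. Gabbr2 stood at 231, 303, 244, 332, 157 and 115 with expected levels of 244, 242, 156, 137, 122 and 41.7, so that Sham L fell under the expected level. Its log2 fold change from Sham of -1.05 ± 0.26 (edgeR adjusted p = 0.0243) became 0.48 (edgeR adjusted p = 0.827) after subtraction. Slc12a5 stood at 94.6, 57.1, 42.9, 47.4, 39.9 and 15.9 with expected levels of 62.9, 67.5, 51, 46.8, 29.6 and 13.7 (log2 fold change -1.68 ± 0.48, edgeR adjusted p = 0.0413). Glra3 stood at 45.4, 74.2, 36.5, 33.9, 21.3 and 2.76 against an expected 25, 24.6, 15.4, 17.2, 11.1 and 8.4, on 4 to 17 UMIs (log2 fold change -2.61 ± 0.73, edgeR adjusted p = 0.0394). Glra3 thus lay above the expected level in every library but sMCAO ipsi. Neither Glra3 nor Slc12a5 was among the members called after subtraction. Gabrg3 stood at 503, 519.7, 423, 474, 486 and 659 against an expected 632, 708, 435, 373, 381 and 205, so that both Sham libraries and mMCAO contra lay below the expected level and the other libraries above it.

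OPCs had 2 called members among 16 tested between MCAO ipsi and Sham, Gabrb2 and Gabbr2, both lower, against 7.68% of 7083 genes. The median log2 fold change was -0.54 over the members and 0.02 over all genes. With free RNA subtracted it was -0.15 over the 12 members then tested and 0.03 over all genes. Between MCAO ipsi and MCAO contra Gabrb2 alone was called, against 2.84% of genes, and the fit with the rat pool as a block called 4. Neither call from Sham was left without Sham L, and their count rose without mMCAO ipsi and fell without any other library. The call from contra was lost without either contra library, and more members were called without mMCAO ipsi. In each of these fits the count over all genes moved in the same direction.

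Gabrb2 in OPCs stood at 429, 367, 222, 284, 121 and 102, with expected free RNA levels of 163, 157, 113, 127, 108 and 41.8. The 3 groups did not overlap, and the moderate ipsi library lay close to its expected level. The OPC class also held markers of interneurons, the class that led for Gabrb2, and their part in these values was not tested. The log2 fold change was -1.94 ± 0.22 from Sham to ipsi (SE, n = 2 against 2, edgeR adjusted p = 0.00182) and -1.27 ± 0.21 from contra to ipsi (edgeR adjusted p = 0.0114). After subtraction of the expected free RNA the change from Sham was -3.03 (edgeR adjusted p = 0.00588). The call from Sham was lost without Sham L alone, where the adjusted p of 0.0709 was the highest of 12 alternatives. The call from contra was lost without mMCAO contra or sMCAO contra, with an adjusted p of at most 0.0843 over 13 alternatives.

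Gabbr2 in OPCs stood at 209.7, 195, 184, 161, 135 and 64 against expected levels of 205, 180.5, 132, 137, 113 and 32, so that the Sham values were at the expected free RNA level. Its log2 fold change was -1.16 ± 0.33 (edgeR adjusted p = 0.0498), and 1.38 (edgeR adjusted p = 0.429) after subtraction. Gabrb1 stood at 643, 763, 549, 527, 484 and 171 against expected levels of 437, 426, 303, 324, 345 and 152, with a log2 fold change of -1.21 ± 0.36 (edgeR adjusted p = 0.0624). The severe ipsi library was at 0.352 of the moderate one (counting interval 0.287 to 0.430).

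Other subunits stood above the free RNA in OPCs and were not called. Gabrg1 was at 172, 159.7, 211, 222, 234 and 232 against an expected 12.5 to 18.6 (log2 fold change from Sham to ipsi 0.38 ± 0.21, edgeR adjusted p = 0.312). Gabra3 was at 79.2, 112, 60, 70.2, 76.7 and 94.3 against an expected 34.4, 34.3, 26.6, 26.9, 27.5 and 10.1. Gabrg3 lay between 586 and 802 in all 6 libraries, above an expected 158 to 531. In these nuclei 3 cell cycle genes together stood at 93.2 and 94.6 in Sham and at 578 and 710 in the ipsi libraries, and the part of this change in the member values was not tested.

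Between MCAO contra and Sham no member of OPCs was called, and 0% of 7083 genes were. DESeq2 called 0 of the members too. Of the 16 members tested 1, Gabrb2, had an unadjusted edgeR p below 0.05 (log2 fold change -0.68 ± 0.21, edgeR adjusted p = 0.579). It was called without mMCAO ipsi or without sMCAO ipsi.

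**Figure D3:**
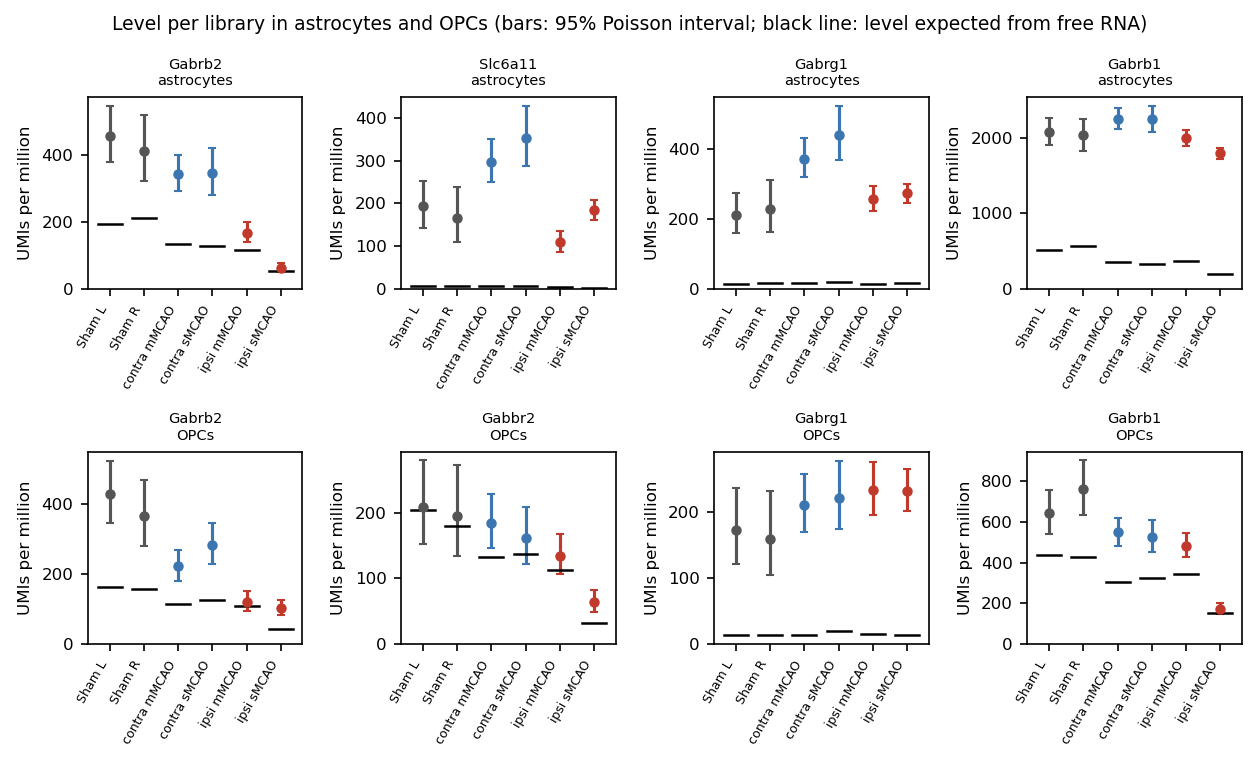
Levels of members in astrocytes and OPCs, in CPM (UMIs per 1000000 UMIs of the class), for each of the 6 libraries. Points are libraries, bars are exact Poisson intervals for counting error, and black horizontal lines are the level expected from free neuronal RNA. Slc6a11 and Gabrg1 in astrocytes are highest in the 2 contra libraries and far above the lines, whereas Gabbr2 in OPCs lies close to them in Sham.

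Oligodendrocytes had the most called members, 7 of 17 tested against 6.73% of 9672 genes, with a median log2 fold change of -1.39 over the members and 0.02 over all genes. Gabrg1 was higher, and Gabbr2, Gabra2, Gabra3, Gabrb1, Gabrg3 and Slc12a5 were lower. The 6 lower members are set beside the expected free RNA. Gabrb1 stood at 357, 405, 205, 297, 195 and 106 against an expected 336, 319, 173, 231, 178 and 109, and Gabrg3 at 422, 362, 188, 382, 193 and 100.3 against an expected 408, 395, 211, 266, 182 and 113. After subtraction of the expected free RNA 0 of the 7 calls were left, as were 0 of all 8666 genes tested. The median log2 fold change was then -0.46 over the 11 members tested and 0.03 over all genes. No call was left without Sham L or Sham R, and the count fell without sMCAO ipsi and rose without mMCAO ipsi. In each of these fits the count over all genes moved in the same direction. The stricter marker gate called 3 members and 305 of all 9455 genes tested.

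The log2 fold changes of these 6 lay between -1.39 ± 0.27 (Gabrb1, edgeR adjusted p = 0.0182) and -1.64 ± 0.38 (Slc12a5, edgeR adjusted p = 0.0319). Gabbr2 stood at 135, 92.1, 67.8, 75.5, 43.2 and 45.8 against an expected 158, 135, 75.8, 97.4, 58.3 and 22.8. Gabra2 stood at 81.7, 114, 39.4, 77.2, 42.1 and 25.6 against an expected 57.7, 55.4, 31.7, 47.5, 31 and 18. Gabra3 stood at 33.3, 36.8, 25.7, 25.4, 17.5 and 9.26 against an expected 26.4, 25.7, 15.2, 19.1, 14.2 and 7.19, and Slc12a5 at 42.4, 49.1, 26.8, 33.1, 21.6 and 9.81 against an expected 40.6, 37.7, 24.7, 33.4, 14.1 and 7.52. In each of the 6 genes both Sham libraries exceeded both ipsi libraries, as did the free RNA share itself.

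Gabrg1 moved the other way. In oligodendrocytes it stood at 38.3, 61.4, 59.6, 76.3, 103 and 155, against an expected 9.63, 9.34, 7.95, 13.3, 7.24 and 9.4, and both ipsi libraries were above all others. The log2 fold change was 1.49 ± 0.29 (SE, n = 2 against 2, edgeR adjusted p = 0.018), and after subtraction 1.45 (edgeR adjusted p = 0.136, at most 0.306 over 12 alternatives). Nuclei with a Gabrg1 UMI were 2.93%, 3.92%, 4.52%, 6.04%, 7.21% and 12.7% of the class, at median depths of 656, 642, 752, 712, 700 and 1122 UMIs, in the order above. Among the other classes that carry Gabrg1, the astrocyte markers summed to 548 and 663 in Sham oligodendrocytes and to 342 and 270 in the ipsi libraries, and the OPC markers to 155 and 181 against 170 and 200.

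NKCC1 (Slc12a2), which oligodendrocytes carried at the highest level of all 6 classes, stood at 535, 408, 484, 587, 569 and 802 against an expected 10.8 to 23.3. The severe ipsi library was highest, at 1.41 times the moderate one (counting interval 1.28 to 1.56), and the log2 fold change from Sham was 0.50 ± 0.21 (edgeR adjusted p = 0.194). Slc6a9 lay between 55.3 and 84.3, against an expected 1.06 to 3.02, and Glrb between 83.4 and 123, against an expected 7.82 to 26.4, both without a call.

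**Figure D4:**
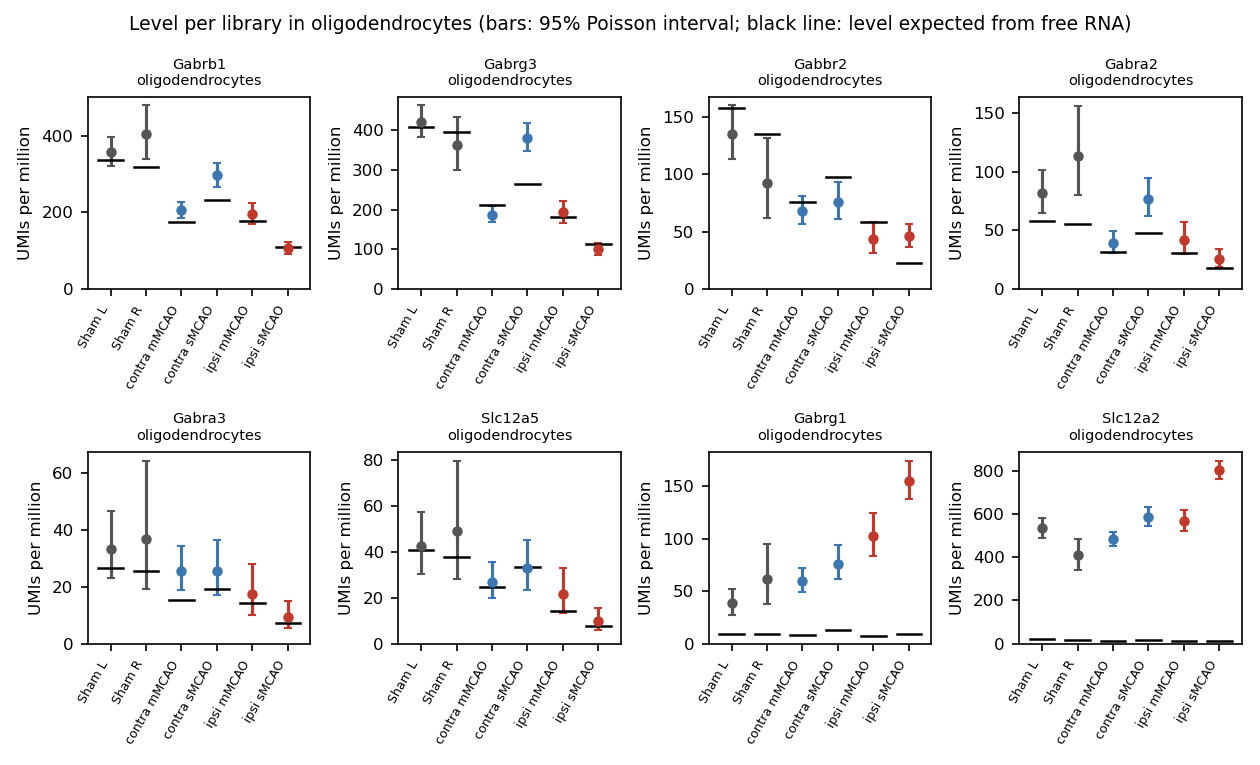
Levels of members in oligodendrocytes, in CPM (UMIs per 1000000 UMIs of the class), for each of the 6 libraries, with exact Poisson intervals as bars and the level expected from free neuronal RNA as black horizontal lines. Gabrg1 lies above its lines and is highest in the ipsi libraries, while Gabrb1 and Gabrg3 follow theirs.

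**Figure D5:**
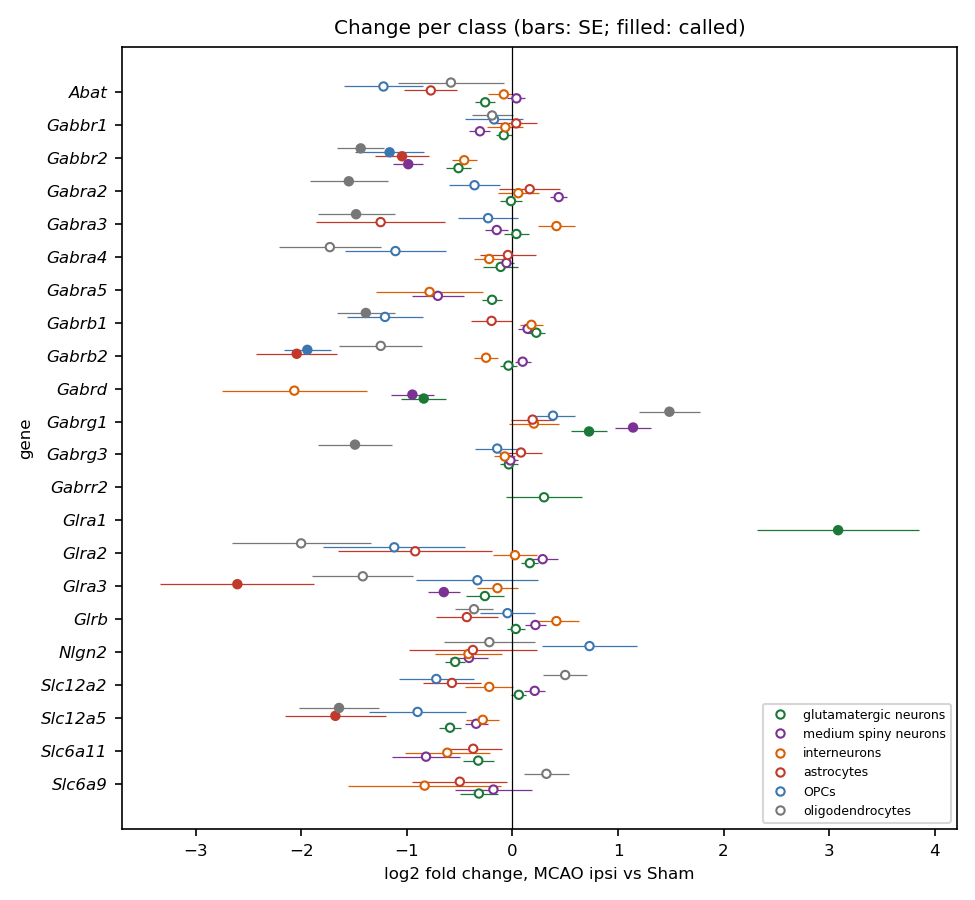
Log2 fold change from Sham to MCAO ipsi of each member tested, by class (colour), with bars for the SE and filled points for called members. Most neuronal values lie near 0, those of Gabrg1 lie above 0 in all 6 classes (in astrocytes at -0.25 once free RNA is subtracted), and many glial values lie below 0.

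The moderate and the severe ipsi library were compared for members with at least 20 UMIs in all, by counting intervals and with no test, since each severity is 1 library. Beyond counting error, the severe library was higher for 7 and lower for 2 of 20 members in medium spiny neurons, and higher for 4 and lower for 1 of 18 in interneurons. In glia the counts were 2 higher and 8 lower of 19 in astrocytes, 1 higher and 4 lower of 15 in OPCs and 2 higher and 6 lower of 16 in oligodendrocytes. The free RNA share of these classes was also lower in the severe library. The same counts were not made over all genes, so they are not read as a trait of the members. Between Sham R and Sham L the counts were 0 higher and 2 lower of 20 in medium spiny neurons, 1 and 1 of 19 in interneurons, 0 and 0 of 14 in astrocytes, 1 and 1 of 12 in OPCs and 0 and 3 of 16 in oligodendrocytes. Between sMCAO contra and mMCAO contra they were 3 higher and 3 lower of 20 in medium spiny neurons, 2 and 1 of 20 in interneurons, 1 and 1 of 16 in astrocytes, 0 and 0 of 16 in OPCs and 8 and 0 of 18 in oligodendrocytes. Libraries of uninfarcted hemispheres thus also differed beyond counting error in some classes.

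The wider pathway was measured with 37 of 40 further genes for synthesis, transport, scaffolding and chloride regulation. In glutamatergic neurons 5 of 35 tested were higher and 3 lower in MCAO ipsi than in Sham, against 7.79% of all genes in either direction. The higher ones were Gabarap, Glul, Aldh9a1, Kctd12 and Slc6a5, of which Slc6a5 passed the filter only through the ipsi libraries. The call of Slc6a5 is therefore not read as a result. The lower ones included Mdga1, which restrains neuroligins (log2 fold change -1.29 ± 0.16, edgeR adjusted p = 0.00424), and Iqsec3, a partner of gephyrin (-0.63 ± 0.07, edgeR adjusted p = 0.00352). In medium spiny neurons 2 of 33 were higher and 5 lower, against 6.07% of all genes. The higher ones included Gad1, which makes GABA and was also used to place nuclei in classes (0.79 ± 0.09, edgeR adjusted p = 0.000243). In interneurons 1 of 30, Slc32a1, was higher and 1, Kcnj6, lower (-0.68 ± 0.14, edgeR adjusted p = 0.0123), against 1.02% of all genes. Slc32a1, which loads GABA into vesicles, was also used to place nuclei in classes.

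In astrocytes 1 of 26 pathway genes was higher and 11 were lower in MCAO ipsi than in Sham, in OPCs 0 of 24 and 5, and in oligodendrocytes 0 of 27 and 6, against 13%, 7.68% and 6.73% of all genes tested in these classes in either direction. Several were neuronal genes at their expected free RNA level, such as Gad2 in astrocytes, at 53.0 and 62.8 in Sham against an expected 49.8 and 58.6. Gad2 was also used to place nuclei in classes, so its level in astrocytes depends in part on that step. The exceptions with glial levels were Maob, a mitochondrial enzyme by which astrocytes can make GABA from putrescine, and Slc38a3, a glutamine transporter. Maob stood at 102, 114, 133, 129, 245 and 253 in astrocytes against an expected 1.52 to 3.78 (log2 fold change 1.13 ± 0.21, edgeR adjusted p = 0.00884). Slc38a3 stood at 125, 137, 129, 156, 66.5 and 76.7 against an expected 1.25 to 2.19 (-0.94 ± 0.24, edgeR adjusted p = 0.0268). Neither gene's ipsi libraries overlapped the other 4.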

How the data were processed

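The authors aligned reads of the 10x 5′ kit to mRatBN7.2 with Cell Ranger 7.0.0, introns included, and deposited raw UMI counts for each nucleus. Their filters, removal of free RNA and doublet calling came later, so the deposited counts hold none of these. Nuclei with at least 500 UMIs, 250 to 5000 genes and at most 5% mitochondrial UMIs were kept.

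Nuclei were placed in classes by marker genes, with at least 2 marker UMIs from 2 genes, a log-likelihood margin of 5 over the next class and a pass over all nuclei to refine the levels. These limits were set after UMIs had been seen. In the 6 classes tested, 4.06% (astrocytes) to 12.0% (glutamatergic neurons) of the nuclei lay near the gate, and more did among endothelial cells (22.9%), fibroblasts (16.7%) and other GABAergic neurons (43.9%). No doublet caller was run. Nuclei with markers of more than 1 family, 1438 in all, were left out, as were 23303 that passed no gate. Interneuron markers were not counted as a second family. In the OPC class the Lhx6 and Adarb2 interneuron lists summed to 3869 and 3257 CPM, against 3555 for its own markers and 3238 and 5597 in interneurons. The pan-GABAergic list summed to 103 CPM in OPCs and 627 in interneurons. The 15 astrocyte markers summed to 2142 CPM in OPCs, against 407 in oligodendrocytes and 17928 in astrocytes. Whether OPC sums hold interneuron or astrocyte RNA was not tested.

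Counts were summed per library and class and tested with edgeR 4.0.16 (R 4.3.3) by the quasi-likelihood F test, with TMM factors, filterByExpr and all 6 libraries in 1 fit of 3 groups (3 residual degrees of freedom). p-values were adjusted by Benjamini-Hochberg over all genes tested in a class and comparison. A call needed an adjusted p below 0.05 and a log2 fold change of 0.6 or more in size. Fold changes carry TMM factors, so they differ from ratios of the levels printed. The SE is the log2 fold change divided by the square root of F. The script was tested on simulated counts first. DESeq2 1.42.0, no TMM factors, no filter, only the 4 libraries compared, a stricter gate, subtraction of free RNA (glia only) and leaving out each library were the alternatives.

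Free RNA was estimated from 9 of 10 listed genes of neurons. Intervals for 1 library are exact Poisson or conditional binomial ones at 95% and cover counting error only, as does the floor of 3 UMIs. The contra and ipsi libraries of a severity come from the same rats. Their deviations correlated at -0.0798 to 0.125 over genes, depending on the class. Sham L and Sham R also share their rats.

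Values in every library are given for called members, at most 10 per class and comparison, and in astrocytes for Gabrb1, Gabrg1 and Slc6a11. Others are given by range or were chosen after their values were seen. The members and the lists were chosen with earlier results of these data known. Levels were compared within a gene only, since no transcript lengths were used. Gabra6, Gabrq, Gabrr1, Gphn and Slc6a13 passed the filter in none of the 6 classes. The sums include introns, and reads shared with overlapping genes cannot be told apart.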

Additional observations from a re-analysis of the deposited data

Results flagged for a closer look

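The change of Gabrb1 between Sham and MCAO ipsi differed between OPCs and astrocytes in a test of the difference itself, within libraries. It was the only result for a member with an edgeR adjusted p below 0.05 among tests of this kind. These covered all members that passed the filter, also for ipsi against contra and for glutamatergic against medium spiny neurons. The change in OPCs minus that in astrocytes was -1.12 ± 0.30 on the log2 scale (edgeR adjusted p = 0.0427, 158 of 8270 genes below 0.05), a comparison added after the data were seen. OPCs stood at 643, 763, 549, 527, 484 and 171 CPM (Sham L, Sham R, mMCAO contra, sMCAO contra, mMCAO ipsi, sMCAO ipsi) against a level expected from free RNA of 437, 426, 303, 324, 345 and 152, and astrocytes at 1793 to 2252 against an expected 198 to 571. The difference had an edgeR adjusted p of 0.0591 without TMM factors, 0.212 with the stricter gate and 0.399 with free RNA subtracted. Leaving out 1 library gave -0.49 to -1.79, and the call was kept only without mMCAO ipsi. From contra to ipsi the same difference was -0.69 ± 0.29 (edgeR adjusted p = 0.312). The OPC class also held astrocyte markers, and their part in these differences was not tested.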

How the results depend on the processing

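Counts of called members moved by over 1.5 times as follows, each against the count in the report, and the cause was not tested except where stated. With only the 4 libraries compared, which leaves fewer residual degrees of freedom, the count was 0 in glutamatergic neurons, 2 in astrocytes in each of the 3 comparisons, and 1 in OPCs for ipsi and for contra against Sham. DESeq2 gave 2 in astrocytes and 1 in OPCs for ipsi against Sham, and no TMM factors gave 1 in OPCs. Without a filter on low counts there were 1 in interneurons, 4 in OPCs against Sham, 4 in OPCs against contra and 11 in oligodendrocytes. The stricter gate gave 3 in oligodendrocytes. Subtraction of free RNA gave 2 in astrocytes against Sham (Gabrb2 lower, Gabra4 higher), 2 against contra, 1 in OPCs against Sham and 0 in oligodendrocytes. It turned the change from Sham of Gabbr2 to 0.48 in astrocytes and 1.38 in OPCs, and of Gabrg1 in astrocytes to -0.25.

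Leaving out 1 library gave 0 to 6 in glutamatergic neurons, 1 to 5 in medium spiny neurons and 0 to 2 in interneurons. In astrocytes it gave 0 to 6 (ipsi against Sham), 0 to 8 (ipsi against contra) and 0 to 2 (contra against Sham), in OPCs 0 to 6, 0 to 9 and 0 to 1, and in oligodendrocytes 0 to 11. A lone library left in a group was assumed to vary like the other groups. In each class the count over all genes for ipsi against Sham fell without either Sham library and rose without mMCAO ipsi. For contra against Sham the count over all genes rose from 0 without either ipsi library. Member counts did not follow in every fit. In medium spiny neurons the member count stayed the same without mMCAO ipsi. Without sMCAO ipsi it rose there and in astrocytes, while the count over all genes fell. The member counts are not read as a trait of the members. The replicate block of the rat pool gave 6 in astrocytes and 4 in OPCs for ipsi against contra, and ended no call of a member named there.

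Over 33 single results and 388 alternatives, 385 kept their direction, and 267 also kept their side of the threshold. Without TMM factors the median log2 fold change of all genes moved from 0.01 to 0.13 in glutamatergic neurons and astrocytes and from 0.02 to 0.13 in OPCs, and higher calls rose from 771 of 1169 to 941 of 1164, from 528 of 928 to 635 of 978 and from 244 of 544 to 330 of 582. Subtraction was not run for neurons, whose own RNA the estimate would remove. Small glial counts, 116 to 136 Sham OPCs per library, limit the glial values.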

Other observations

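Slc6a13, which encodes the GABA transporter GAT2, had few UMIs in any class. In fibroblasts, a class whose 15 astrocyte markers summed to 2783 CPM and whose own 5 markers summed to 2633 CPM, it rested on 1, 0, 5, 1, 7 and 31 UMIs in Sham L, Sham R, mMCAO contra, sMCAO contra, mMCAO ipsi and sMCAO ipsi. In the last of these 16 of 100 fibroblasts had a UMI, while the other libraries held 1 to 23 fibroblasts each. Endothelial cells stood at 4.99 CPM in sMCAO ipsi and at 26.9 to 169.5 CPM in the other libraries, on at most 7 UMIs per library, and astrocytes held at most 1 UMI per library. Glutamatergic neurons held 1 to 5 and medium spiny neurons 0 to 5 UMIs per library. Free RNA was not estimated for vascular classes, and none of these values was tested.

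Gabrb1 in cholinergic neurons lay at 1369.9 to 1910.5 CPM, above the interneuron class at 566 to 718 in every library. The markers of the cholinergic class do not tell which brain region its nuclei came from. Gabrg3 in GABAergic neurons that are neither spiny neurons nor gated interneurons stood at 2372, 1887, 1937, 1824, 2783 and 2728, with both ipsi libraries highest. These values were not tested and were chosen after they were seen.

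The GABA-A subunits Gabra6, Gabrq, Gabrr1 and Gabrr2 had few UMIs. Whole libraries held 7 to 14 UMIs of Gabra6, 7 to 18 of Gabrq, 3 to 23 of Gabrr1 and 39 to 113 of Gabrr2. Of these Gabrr2 was tested, in glutamatergic neurons, where it rested on 21 to 81 UMIs per library (log2 fold change from Sham to MCAO ipsi 0.30 ± 0.36, edgeR adjusted p = 0.611).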
